A study of Mus musculus with 3 samples.

Results

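A set of 10 genes was followed, made up of 7 genes of neutrophils (S100a8, S100a9, Camp, Ngp, Ltf, Mpo and Elane) and 3 genes of the stefin A cluster (Cstdc4, Cstdc5 and Stfa1). They were chosen by name, because several of them had stood above wild type when DKO and WT libraries were first compared. Their difference between these libraries is therefore given as a description, with no test. All 10 had a row among the 16383 RefSeq transcripts of the deposited table, S100a9 with a pair of rows, which made 11 rows in all.

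The libraries were whole mouse lung on a C57BL/6J/mixed background, with 2 libraries of genotype Lin28a and Lin28b KO (DKO 1 and DKO 2) and 1 wild-type library (WT). Exon 2 of both genes, between loxP sites, had been removed with tamoxifen and the epithelial Cre driver NKX2.1creERT, so the deletion was meant for lung epithelium and not for blood cells. The labels attach the same tamoxifen protocol to WT, and they give neither age, sex nor the alleles WT carried. Whether DKO 1 and DKO 2 were taken from different animals is not stated, and their spread may be partly technical. The study asked what these RNA-binding proteins do in lung branching and epithelial differentiation.

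Neutrophils are short-lived white blood cells that kill microbes with proteins stored in granules. Primary granules, filled early in maturation, hold myeloperoxidase and elastase, and secondary granules, filled later, hold lactoferrin and cathelicidin. S100a8 and S100a9 form calprotectin, an abundant calcium-binding complex of the neutrophil cytosol. Stefins are small intracellular inhibitors of cysteine cathepsins, and the mouse carries a row of closely related stefin A copies on chromosome 16, several of which are known from neutrophils. Before birth the liver is a main site where neutrophils are made.

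The levels were RPKM, read numbers scaled by transcript length and by library depth. The worth of 1 read, recovered from low values and transcript lengths, put the depth at about 30700000 reads for DKO 1, 34200000 for DKO 2 and 48700000 for WT. Read numbers below are approximate, since 45.2%, 43.8% and 45.6% of low values in these libraries came within 0.05 of a whole read. Of all rows, 68% were listed at 0 in every library. Among lung epithelial markers, Epcam had 6.75 RPKM in DKO 1, 10.6 in DKO 2 and 17.4 in WT, and Sftpc had 7.55, 0.0364 and 369 RPKM in that order. Nkx2-1, whose regulatory region gave the Cre driver its name, was listed at 0 throughout, which is no measure of its level. The Y-linked gene Eif2s3y had 15.0 RPKM in DKO 1 and 5.07 in DKO 2, with a listed 0 in WT. Sex and genotype thus cannot be told apart in any comparison with WT.

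The promoter windows of the stefin A members are printed because they show how alike these copies are, which bears on which gene a read is counted for. Each runs 5′ to 3′ from 250 bases before to 50 bases after the start (RefSeq, GRCm38.p6). Capitals in the Cstdc5 window (chr16:36367521-36367820, minus strand) mark bases that, where the aligned windows overlap, differ from the base of Stfa1 or face a gap. Ends that reach past the other window stay in lower case. Those in the Stfa1 window (chr16:36276898-36277197, plus strand) and the Cstdc4 window (chr16:36183962-36184261, plus strand) mark the same against Cstdc5.
Cstdc5: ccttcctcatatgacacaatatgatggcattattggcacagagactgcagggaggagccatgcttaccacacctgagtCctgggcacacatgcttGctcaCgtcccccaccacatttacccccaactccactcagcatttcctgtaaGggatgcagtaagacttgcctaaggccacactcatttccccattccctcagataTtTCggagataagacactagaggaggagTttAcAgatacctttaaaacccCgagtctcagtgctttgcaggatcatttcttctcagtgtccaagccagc
Stfa1: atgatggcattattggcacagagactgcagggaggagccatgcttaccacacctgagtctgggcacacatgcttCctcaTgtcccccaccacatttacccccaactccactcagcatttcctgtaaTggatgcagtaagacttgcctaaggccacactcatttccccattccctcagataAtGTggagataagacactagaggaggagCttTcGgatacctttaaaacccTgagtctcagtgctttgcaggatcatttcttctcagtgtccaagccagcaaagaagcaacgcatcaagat
Cstdc4: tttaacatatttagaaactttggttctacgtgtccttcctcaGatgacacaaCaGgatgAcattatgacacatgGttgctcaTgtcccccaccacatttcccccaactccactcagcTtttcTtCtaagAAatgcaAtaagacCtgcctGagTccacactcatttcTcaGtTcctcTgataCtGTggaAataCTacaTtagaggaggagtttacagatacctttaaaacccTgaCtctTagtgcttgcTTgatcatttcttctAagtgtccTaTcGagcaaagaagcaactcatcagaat

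Cstdc5 and Stfa1 were identical at 96.4% of 279 aligned promoter bases, with 11 bases of the Cstdc5 window in capitals. Cstdc4 was further off, with 35 bases in capitals and 85.8% identity to Cstdc5 over 246 aligned bases. Their overlap ran over 300 alignment columns. Bases of Cstdc5 that face a gap in Cstdc4 are neither shown by these capitals nor counted in the identity. The windows of members that follow are described by their motifs alone, apart from that of S100a8.

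S100a8 had the highest level of the 10 genes in both DKO libraries, while in WT Stfa1 was above it (NM_013650, chromosome 3, 90669071 to 90670034). It had 72.2 RPKM in DKO 1 and 108 RPKM in DKO 2, against 3.04 RPKM in WT, or about 1076, 1789 and 72 reads. Both DKO libraries were far above WT, and the gene was present at a low level in WT lung. S100a8 was thus 23.8 times as high in DKO 1 as in WT (95% exact binomial interval 18.7 to 30.6) and 35.4 times as high in DKO 2 (28.0 to 45.5). Such intervals cover counting error between single libraries and say nothing of the spread between animals. By the smaller of the log2(RPKM + 1) differences of the DKO libraries from WT, S100a8 ranked 2 among the 2066 transcripts tested, those averaging 1 RPKM or more over the libraries.

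The S100a8 window (chr3:90668821-90669120, plus strand) is shown as that of the member with the highest level in the DKO libraries, with capitals marking matches to the PU.1 motif GAGGAA on either strand.
S100a8: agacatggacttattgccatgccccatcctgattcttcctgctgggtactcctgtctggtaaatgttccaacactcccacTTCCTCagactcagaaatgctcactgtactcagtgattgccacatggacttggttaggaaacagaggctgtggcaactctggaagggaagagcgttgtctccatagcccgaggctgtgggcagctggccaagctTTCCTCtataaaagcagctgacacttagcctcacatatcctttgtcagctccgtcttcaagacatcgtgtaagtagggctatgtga
PU.1 is a transcription factor of myeloid cells. GAGGAA, counted on both strands, was found in 7 of the 10 member windows and in 28.3% of 32851 promoter windows of the same length. The C/EBP motif TTNNGCAA, counted likewise, was found in 5 of the 10 and in 10.8% of all windows, and in the member windows its matches overlapped none of GAGGAA. The windows of the 3 stefin A members are near copies of one another, so their matches are not all separate instances. The C/EBP matches of Cstdc5 and Stfa1 fall on the same aligned bases. The GAGGAA match of Stfa1 covers a base that differs in Cstdc5. Neither motif was found in the Camp window. Any link between these motifs and the levels was not tested.

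S100a9, the partner of S100a8 in calprotectin and its neighbour on chromosome 3 (90692630 to 90695721), was listed at 0 in every library in both of its rows. Its zeros are no measure of its level. Among genes with a single RefSeq transcript 47.7% of rows were listed at 0 throughout, and among genes with a pair of them, as S100a9 has, 69.4% were. Csf3r, the receptor for the growth factor of neutrophils, also had a pair of rows, both at 0.

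The granule genes fell into a present gene and several near or at 0. Camp, which encodes the antimicrobial peptide cathelicidin of secondary granules (NM_009921, chromosome 9, 109847377 to 109849456), had 4.84 RPKM in DKO 1 and 9.32 RPKM in DKO 2, with a listed 0 in WT. These are about 113 and 242 reads in the DKO libraries. Whether the 0 in WT is absence or a failed estimate cannot be told. Ngp, a cathelicidin-related protein of the same granules and a near neighbour on the chromosome (110419808 to 110423012), was listed at 0 in all 3 libraries. Ltf, the iron-binding lactoferrin (chromosome 9, 111019292 to 111042766), had 0.0357 RPKM in DKO 1, about 3 reads, and a listed 0 in DKO 2 as in WT. Of these 3 secondary granule genes, which lie close together on chromosome 9, Camp alone thus had more than a few reads. The zeros of Ngp are no measure of its level. Of rows of genes with a single RefSeq transcript, 47.7% were listed at 0 throughout.

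Of the primary granule genes, Mpo, which encodes the enzyme that makes hypochlorous acid (NM_010824, chromosome 11, 87793784 to 87804412), was listed at 0 in DKO 1 and had 0.563 RPKM in DKO 2, against 0.0323 RPKM in WT. These values stand for about 53 reads in DKO 2 and 4 in WT. Its level in DKO 2 was 17.4 times that in WT (95% exact binomial interval 6.42 to 66.3), while DKO 1, at 0, lay on the other side of WT. An antisense gene overlaps Mpo, and since the sources used here do not say whether reads were assigned by strand, its low level is uncertain. Elane, the neutrophil elastase gene (chromosome 10, 79886312 to 79888216), was listed at 0 throughout. Mpo and Elane were thus listed near or at 0 in the same libraries in which S100a8 and Camp stood above WT. The zeros of Elane cannot be told apart from failed estimates.

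**Figure D1:**
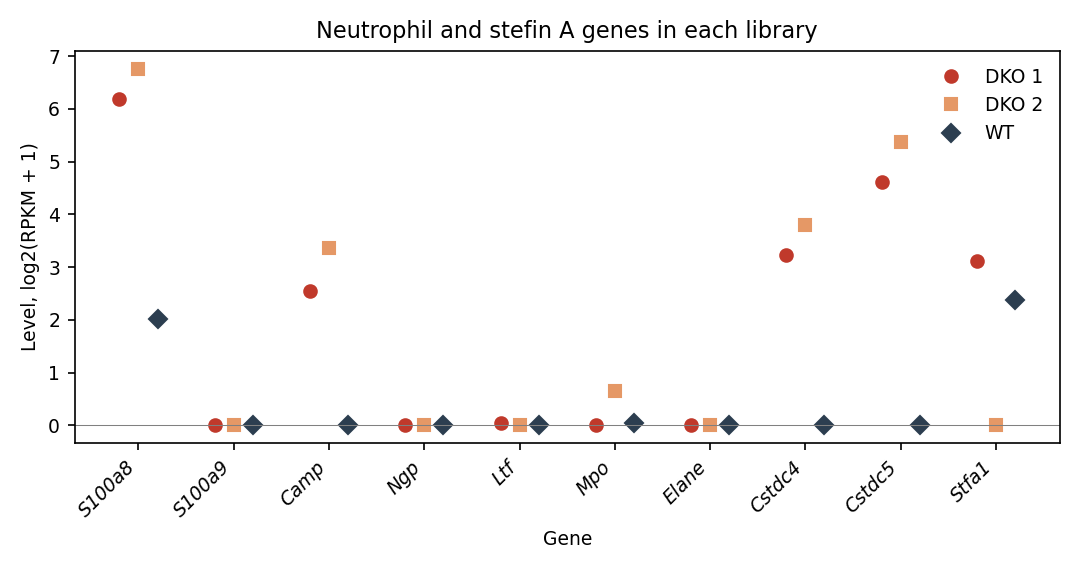
Level of each of the 10 genes on the log2(RPKM + 1) scale (y axis) in DKO 1, DKO 2 and WT, 1 point per library, with 1 of the S100a9 rows shown. S100a8, Camp, Cstdc4 and Cstdc5 lie above WT in both DKO libraries, Stfa1 lies on either side of it, and the other 5 genes lie at or near 0.

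Of the stefin A members, Cstdc5 had the highest level in both DKO libraries (NM_001082546, chromosome 16, 36359382 to 36367570). It had 23.4 RPKM in DKO 1 and 40.4 RPKM in DKO 2, about 444 and 856 reads, with a listed 0 in WT. No fold is given against a library at 0. It ranked 1 among the 2066 transcripts by the smaller of its differences. An antisense gene also overlaps Cstdc5.

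Cstdc4 (NM_001082547, chromosome 16, 36184212 to 36188111) had the same pattern at a lower level, with 8.37 RPKM in DKO 1 and 12.95 RPKM in DKO 2 and a listed 0 in WT. It ranked 4 by the same measure, and Camp ranked 12. Stfa1 (NM_001082543, chromosome 16, 36277148 to 36285371) went apart from both, with 7.64 RPKM in DKO 1 and a listed 0 in DKO 2, against 4.18 RPKM in WT. Its DKO values lay on either side of WT, with about 145 reads in DKO 1 and 125 in WT beside the listed 0 in DKO 2.

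The copies differed in how much sequence they shared. The transcripts of Cstdc5 and Stfa1 were identical at 97.1% of 617 aligned bases, and those of Cstdc5 and Cstdc6, the gene between them, at 96.9% of 385. Of the 570 words of 50 bases in the Cstdc5 transcript, 48.9% were also found in a transcript of another gene, most often in that of Stfa1 (23.0%). For Stfa1 this share was 26.9%. Cstdc4 shared no such word with Cstdc5, to which it was 83.1% identical, but 35.6% of its words with Csta2, another gene of the cluster. S100a8 and Camp shared no word of 50 bases with any other gene, so the near-identical copies do not touch their values.

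**Figure D2:**
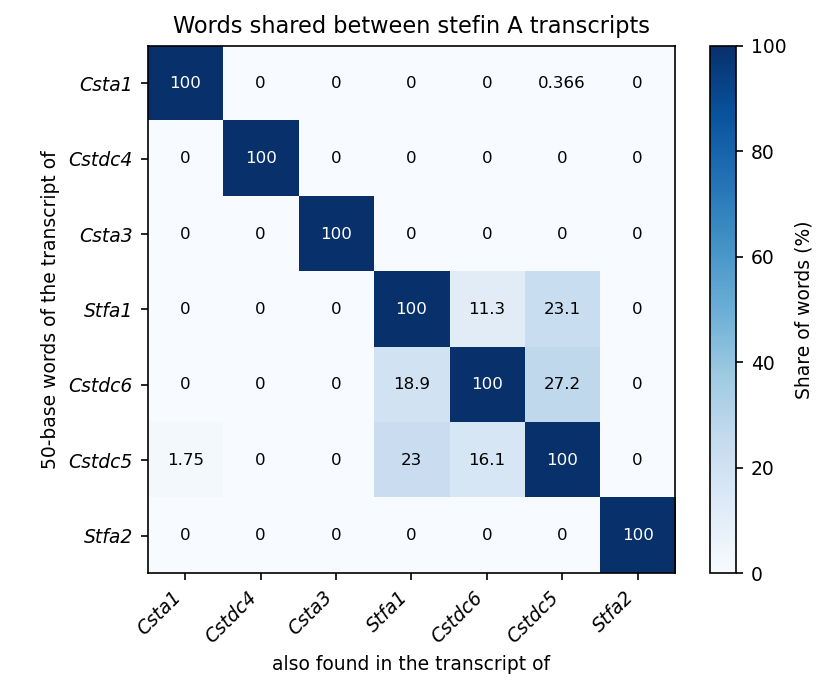
Share (%, colour and number) of the 50-base words in the transcript of the gene on the y axis that are also found in the transcript of the gene on the x axis, for 7 genes of the stefin A cluster in chromosomal order. Cstdc5, Stfa1 and Cstdc6 share words with each other, and Cstdc4 shares none with these 3.

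The whole cluster (chromosome 16, 36119946 to 36455392) was therefore also taken as 1 sum, an alternative chosen after the single values were seen. Of its 12 protein-coding genes, 7 had a row, and Csta1 and Csta3 were listed at 0 in all libraries. Cstdc6 had 0.168 RPKM in DKO 1 and 1.81 in DKO 2, and Stfa2 had 0.462 and 4.35, with a listed 0 in WT for both. The 7 rows summed to 40.0 RPKM in DKO 1 and 59.6 RPKM in DKO 2, against 4.18 RPKM in WT. The sum in DKO 1 was 9.58 times that in WT (95% exact binomial interval 7.91 to 11.7, counting error only), and the sum in DKO 2 was 14.3 times that in WT (11.8 to 17.3). The sum is mostly made of Cstdc5 and Cstdc4, members chosen for standing above WT, and 5 of the 12 genes are not in it, so it is a description like theirs.

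The genes that made up the sum differed between libraries. Cstdc5 held 58.4% of it in DKO 1 and 67.9% in DKO 2 and 0% in WT, whereas Stfa1 held 19.1% in DKO 1, 0% in DKO 2 and 100% in WT. The ratio of Cstdc5 to Cstdc4, per length, was 2.79 in DKO 1 and 3.12 in DKO 2. Which copy the reads came from was not tested.

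**Figure D3:**
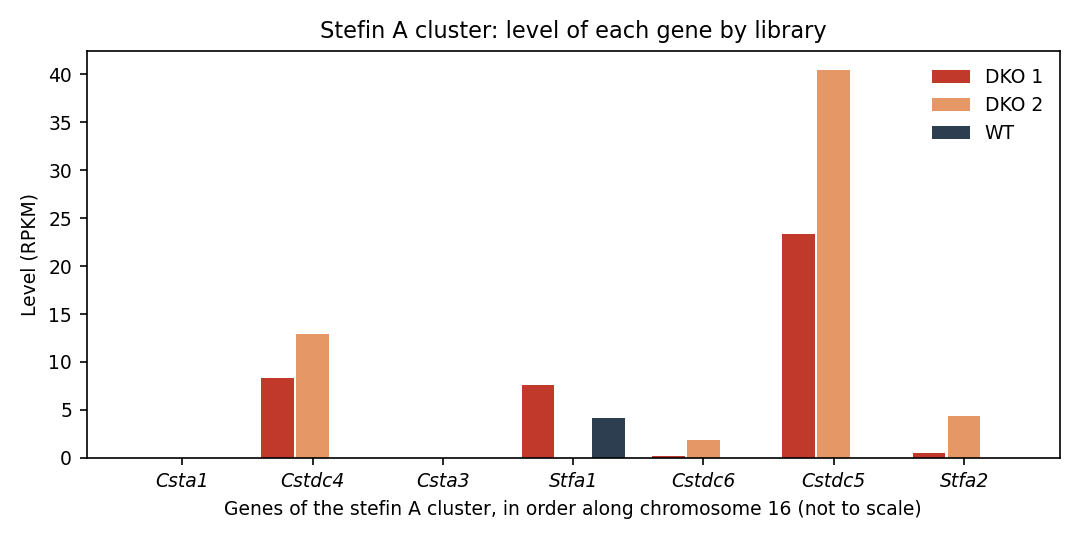
Level (RPKM, bars from 0) of the 7 genes of the stefin A cluster with a row, in their order along chromosome 16, in DKO 1, DKO 2 and WT. WT has a bar at Stfa1 alone, where DKO 2 is at 0, while DKO 1 and DKO 2 have their highest bars at Cstdc5.

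The members above WT were compared between the DKO libraries, which their choice did not fix. All 4 were higher in DKO 2 than in DKO 1. The ratio of DKO 2 to DKO 1 was 1.49 for S100a8 (95% exact binomial interval 1.38 to 1.61), 1.55 for Cstdc4 (1.21 to 1.99), 1.73 for Cstdc5 (1.54 to 1.95) and 1.92 for Camp (1.53 to 2.43). Over 2026 tested transcripts above 0 in both libraries the median ratio was 1.08, with quartiles of 0.626 and 1.68. S100a8 and Cstdc4 therefore lay within the quartiles and Cstdc5 and Camp above the upper one. With 1 library on each side these ratios have no replicate check.

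By a rule of size, 4 of the 5 members with a mean of at least 1 RPKM (S100a8, Camp, Cstdc4 and Cstdc5) lay at least 2-fold above WT in DKO 1 and in DKO 2, both taken on the log2(RPKM + 1) scale, and had DKO 1 and DKO 2 nearer to each other than to WT. Over all tested transcripts 3.19% met this rule upwards, 66 of 2066, and 1.5% downwards. After rescaling to TPM 71 were higher and 67 lower, against 66 and 31 in RPKM. The members were picked for standing above WT, so this count describes the choice. Camp, Cstdc4 and Cstdc5 also passed the filter through DKO libraries alone, with a listed 0 in WT. Ranks of members among the tested transcripts are descriptions in the same way. The other 5 members (S100a9, Ngp, Ltf, Mpo and Elane) did not reach that mean and were not counted.

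The rest of the neutrophil and stefin genes give a view that does not depend on picking members, although their lists were drawn up with earlier results known. Of 86 further genes of primary granules, secondary and tertiary granules, neutrophil surface and cytosol, and stefins and other cystatins, 61 had a row and 12 were tested. With limma and Benjamini-Hochberg adjustment 0 of the 12 passed (lowest adjusted p = 0.163), 3 had an unadjusted p under 0.05, and 0 passed with voom on approximate reads. Over all tested transcripts limma called 0.0968%, or 2 of 2066, and 66 had an unadjusted p under 0.05. Those 2 were Sftpc, lower in the DKO libraries, and Cstdc5, a member chosen on this contrast, whose call is therefore no support. The limma fit took its spread from the 2 DKO libraries and assumed that the 1 WT library varied like them. The 12 had a median log2 difference of 1.11, beside −0.01 over all tested transcripts. Of these 12, 2 (Lcn2 and Stfa2) passed the filter through DKO libraries alone, with a listed 0 in WT, and the median of the other 10 was 0.61, beside −0.02 over the 2036 tested transcripts above 0 in WT. That median was taken after seeing the values. By size 3 of the 12 were at least 2-fold higher in both DKO libraries and 1 was lower.

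Those 3 were Wfdc17, Cyba and Ncf4. Wfdc17, a small secreted protein with a whey acidic domain, had 42.7 RPKM in DKO 1 and 130.5 RPKM in DKO 2, against 4.34 RPKM in WT (limma adjusted p = 0.163). Cyba and Ncf4 encode subunits of the NADPH oxidase with which neutrophils and macrophages make superoxide. Cyba had 147 RPKM in DKO 1 and 70.5 in DKO 2, against 14.6 in WT (limma adjusted p = 0.708), and Ncf4 had 19.3 and 34.0 RPKM in the DKO libraries, against 5.75 in WT (limma adjusted p = 0.999). These 3 genes lay above WT in both DKO libraries without passing. Gusb, a lysosomal enzyme also found in primary granules, was the one lower by size, with 2.57 RPKM in DKO 1 and 2.42 in DKO 2, against 7.06 in WT.

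Among secondary granule genes, Lcn2, which binds bacterial siderophores, had 11.1 RPKM in DKO 2, with a listed 0 in DKO 1 as in WT. Anxa1 had 19.3 RPKM in DKO 1 and 0.314 in DKO 2, against 6.07 in WT. Among primary granule proteases, Prtn3 had 2.72 RPKM in DKO 1 and 0.121 in DKO 2, against 0.127 in WT, and Ctsg had 2.36 RPKM in DKO 2 and a listed 0 in the other libraries. These 4 genes each had unlike values in DKO 1 and DKO 2, whereas those of Gusb were close. Among the 5 tested genes of neutrophil surface and cytosol, the chemokine receptor Cxcr2 had 117 RPKM in DKO 1, 157 in DKO 2 and 97.6 in WT. Padi4 had 2.46, 2.43 and 1.54 RPKM in that order, and G0s2 had 115, 23.9 and 16.2 RPKM.

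Outside the stefin A cluster the inhibitors of the same class were abundant in every library. Stefin B (Cstb) had 686 RPKM in DKO 1 and 1111 in DKO 2, against 711 in WT, and cystatin C (Cst3) had 1125 and 912 RPKM, against 605 in WT. The listed stefin A rows were thus a small share of the cystatin RNA even in the DKO libraries. They cover 7 of the 12 genes of the cluster, so the share of the whole cluster was not measured. Of 6 tested cathepsin and legumain genes, 0 passed limma, 0 had an unadjusted p under 0.05, and the median log2 difference was 0.47. Ctsb had 8.50 RPKM in DKO 1 and 8.54 in DKO 2, against 8.87 in WT, and Ctsl had 19.7 and 28.1 RPKM, against 22.5 in WT. Of 7 tested S100 genes other than S100a8, 0 passed limma and 1 had an unadjusted p under 0.05. S100a6 had 50.8 RPKM in DKO 1 and 59.1 in DKO 2, against 24.0 in WT, and S100a10 had 356 and 520 RPKM, against 437 in WT.

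**Figure D4:**
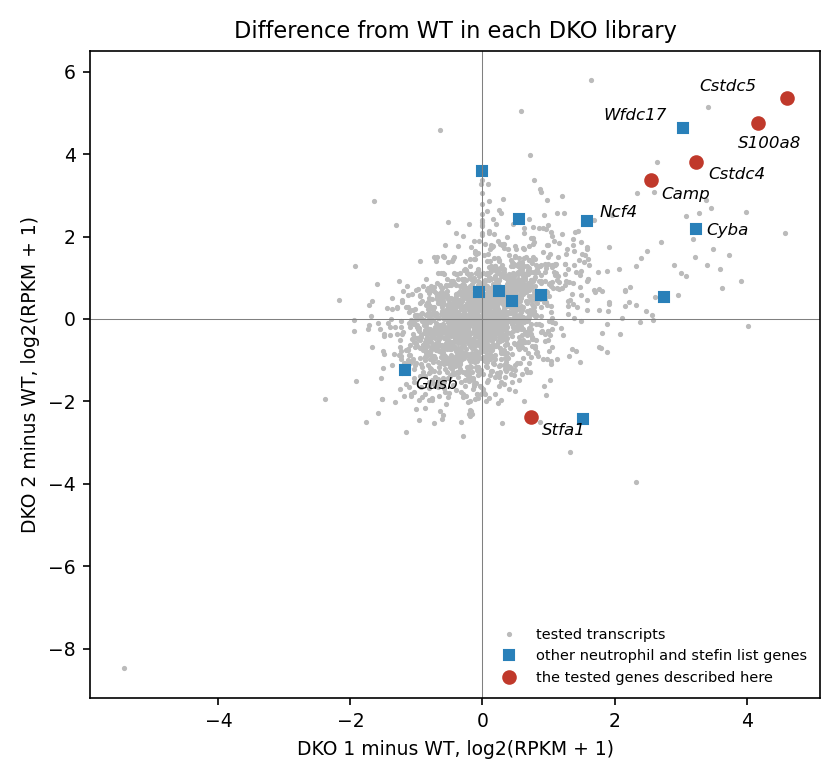
Difference from WT on the log2(RPKM + 1) scale in DKO 1 (x axis) and DKO 2 (y axis) for the 2066 tested transcripts (grey), the 12 tested genes of the neutrophil and stefin lists (blue squares) and the 5 tested members (red circles). S100a8, Cstdc5, Cstdc4 and Camp lie at the upper right with Wfdc17, and Stfa1 lies below 0 on the y axis.

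Of 28 transcription factor and regulator genes of myeloid development with a row, 13 were listed at 0 throughout and 4 were tested. Spi1, which encodes PU.1, had 0.196 RPKM in DKO 1, a listed 0 in DKO 2 and 0.0154 in WT. Cebpd, a C/EBP factor of myeloid cells and of acute inflammation, had 36.8 RPKM in DKO 1 and 4.17 in DKO 2, against 2.07 in WT. Of the 4 tested genes 0 passed limma, and 1, Cebpd, had an unadjusted p under 0.05. Cebpd was thus highest in DKO 1, whereas the members above WT were highest in DKO 2.

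The genes nearest to S100a8 in profile over the 3 libraries were searched among 2058 tested transcripts with a name, by Euclidean distance between log2(RPKM + 1) values centred on their mean. Outside the members these were Mt2 (distance 0.833), Wfdc17 (0.889), Hsd3b6 (1.10), Cd52 (1.33) and Mt1 (1.33). Mt2, a metallothionein that binds zinc and copper, had 20.3 RPKM in DKO 1 and 69.5 in DKO 2, against 0.997 in WT. The 5 nearest to Cstdc5 were these same genes in this order. Cstdc5 itself was nearer to S100a8 than any of them, at 0.451, and Stfa1 was far from it, at 5.04. With 3 libraries a profile has few ways to differ, so likeness here says little.

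Markers of other cells also differed between the libraries. In a bulk library fewer cells of a type and less RNA per cell cannot be told apart, and their part in the results was not tested. Of 9 defining markers of neutrophils, 8 had a row and 3 of these (S100a9, Elane and Csf3r) were at 0 in all libraries. Of 7 tested general leukocyte genes 0 passed limma, and 2, Cd52 and Tyrobp, had an unadjusted p under 0.05. Of the 7, 4 lay above WT in both DKO libraries and 1, Srgn, lay below it in both. Cd52, a leukocyte surface protein, had 39.1 RPKM in DKO 1 and 27.1 in DKO 2, against 2.82 in WT, and the receptor adaptor Tyrobp had 219 and 52.3 RPKM, against 24.9 in WT. Both were higher in DKO 1 than in DKO 2. Other genes of the list were higher in DKO 2, among them Arhgdib, with 27.9 RPKM in DKO 1 and 78.9 in DKO 2, against 34.1 in WT, and Laptm5, with 0.788 and 2.79 RPKM, against 0.103 in WT. The leukocyte list thus had no common order between the DKO libraries. Ptprc, the common leukocyte antigen, was at 0 in all of its 3 rows, which, as for S100a9, is no measure of its level.

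The macrophage list summed to 97.0 RPKM in DKO 1 and 52.8 in DKO 2, against 37.4 in WT. Apoe, its gene of highest mean level, had 41.4 RPKM in DKO 1 and 41.7 in DKO 2, against 18.6 in WT. Most of the DKO 2 sum was thus Apoe. Of 6 tested genes 0 passed limma and 1 had an unadjusted p under 0.05. C1qb, a complement component made by macrophages, had 19.4 RPKM in DKO 1 and 4.90 in DKO 2, against 0.812 in WT, whereas its partner C1qc had 25.1 and 0.111 RPKM, against 9.43 in WT. The Fc receptor Fcgr3 lay below WT in both DKO libraries, with 2.17 RPKM in DKO 1 and 0.389 in DKO 2, against 4.39 in WT. Of 6 defining markers Cd68 was at 0 throughout. Adgre1, the F4/80 antigen gene, had 0.522 RPKM in DKO 1 and 1.28 in DKO 2, against 0.0949 in WT. S100a8 and Wfdc17 are also known from monocytes, so they do not mark neutrophils alone.

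The liver and erythroid lists had their highest sums in DKO 2. S100a8, Camp, Cstdc4 and Cstdc5 were also highest there, at 1.49 to 1.92 times their levels in DKO 1. They stood above WT in DKO 1 as well. Any link between the lists and these genes was not tested. The liver list summed to 11.4 RPKM in DKO 1 and 188 in DKO 2, against 7.55 in WT. Albumin (Alb) had 0.654 RPKM in DKO 1 and 14.8 in DKO 2 and was at 0 in WT, and Afp had 0.891 and 69.96 RPKM, against 1.95 in WT. The erythroid list summed to 28760 RPKM in DKO 1 and 102809 in DKO 2, against 20236 in WT. Apoa2, an apolipoprotein of the liver, had 2.88 RPKM in DKO 1 and 67.7 in DKO 2, against 0.237 in WT, and so lay above WT in both DKO libraries. Not every erythroid gene was highest in DKO 2, since Car2, a carbonic anhydrase, had 44.3 RPKM in DKO 1 and 33.8 in DKO 2, against 33.7 in WT.

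Squamous epithelium also expresses stefin A and S100a8. Of 24 genes of that list with a row, 15 were at 0 in all libraries, among them Trp63 in its 8 rows. Such zeros are no measure of level. In limma 0 of the 4 tested passed, with 1 at an unadjusted p under 0.05. Lgals7, a galectin of stratified epithelium, had 33.9 RPKM in DKO 1 and 20.4 in DKO 2, against 2.58 in WT. Lor, a protein of the cornified envelope, had 1.39 and 0.920 RPKM in the DKO libraries, against 0.0115 in WT. The list summed to 80.2 RPKM in DKO 1 and 63.4 in DKO 2, against 32.1 in WT. Most of each sum was Krt10, with 41.4 RPKM in DKO 1 and 35.5 in DKO 2, against 28.8 in WT.

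**Figure D5:**
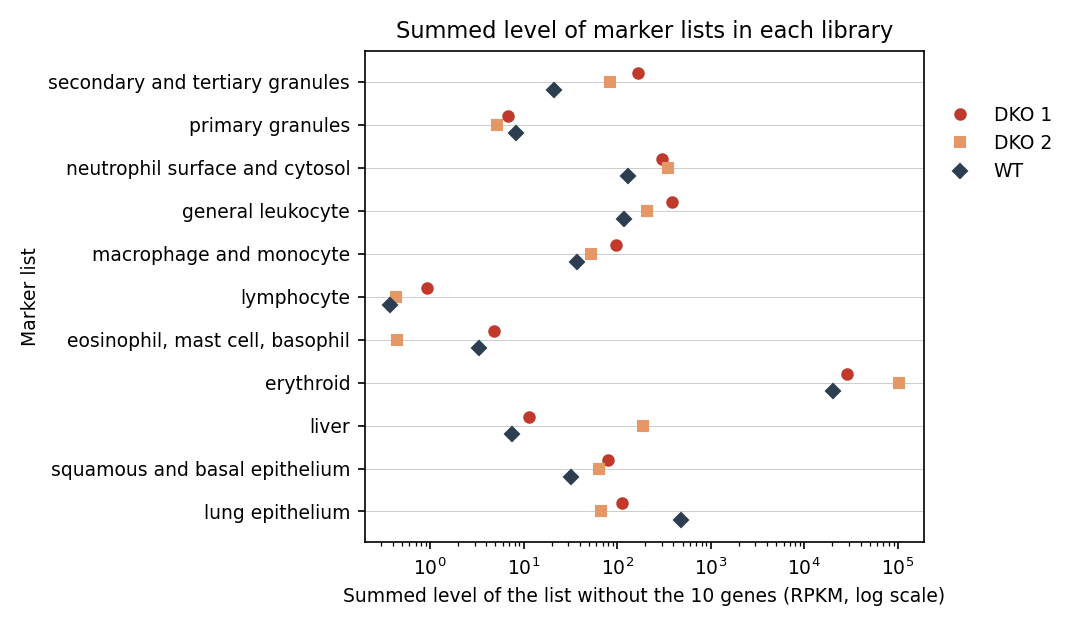
Summed RPKM (x axis, log scale) of 11 marker lists in DKO 1, DKO 2 and WT, without the 10 genes described. Secondary granule, neutrophil surface, leukocyte, macrophage and squamous sums lie above WT in both DKO libraries, and erythroid and liver sums are highest in DKO 2. Most of each secondary granule sum is Cyba, most of each squamous sum is Krt10, and most of the macrophage sum in DKO 2 is Apoe. Lung epithelial sums are below WT in both, and the WT sum of that list is mostly Sftpc.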

How the data were processed

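The authors deposited RPKM values for RefSeq transcripts, 1 column per library. Per the labels' protocols, Trizol was used for total RNA and a SMARTer Ultra Low Input kit for the libraries. Per the submitters' processing notes the build was mm10 and the tools were edgeR, HTSeq, TopHat2 and cutadapt. Their versions, the annotation, the transcript lengths and strand use were not stated in those sources.

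Row identifiers were named from RefSeq (GRCm38.p6, 16151 of 16383) and GENCODE vM21 (77 more), leaving 155 unnamed. A 0 was read as listed at 0 only. Values were analysed as log2(RPKM + 1), which understates changes of low genes. The 2066 transcripts averaging 1 RPKM or more were fitted with limma 3.58.1 in R 4.3.3 (mean-variance trend, two-sided, Benjamini-Hochberg, 1 residual degree of freedom, prior 11.2). The procedure was also run on simulated data. There all libraries had the same spread, so the assumption that WT varies like DKO was not checked. Reads were approximated from RPKM and GENCODE transcript length, and intervals (95%, scipy 1.17.1) cover counting error only. Sequences were aligned with Biopython 1.88.

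The members and lists were chosen with earlier results of these data known. The genes named are the members, up to 4 non-members of the highest mean level in each list and any that limma called, the 5 nearest profiles to S100a8 and to Cstdc5, and the stefin A cluster. Defining markers, the 4 genes past the rule of size, Laptm5, Srgn, Car2, Lcn2, Prtn3, Ctsg, Spi1, Lor, Padi4 and Eif2s3y were added where counts called for them or after their values were seen. Genes with no row were not analysed here, and 1 other gene is not reported here. Alternatives were other pseudocounts (0.1 and 5), other filters (none, or 5 RPKM), other scalings (median, quantile, TPM), other moderation, voom and leaving out each DKO library.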

Additional observations from a re-analysis of the deposited data

How the results depend on the processing

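The count of members at least 2-fold higher in both DKO libraries, 4 in the main setting, was 3 or 4 under all 9 alternatives. That of other neutrophil and stefin list genes, 3, was 2 or 3 under the 7 settings that kept both DKO libraries, and 5 (lowest and highest) when either was left out. Over all transcripts, 66 were higher by size, against 118 with a pseudocount of 0.1, 28 with a pseudocount of 5 and 39 with a filter at 5 RPKM, and 166 to 311 when a DKO library was left out. The calls of limma, 2 over all transcripts, became 13 with a pseudocount of 0.1, 1 with a pseudocount of 5, 10 with a filter at 5 RPKM, 4 with median scaling and 0 with no filter (rows above 0 somewhere), quantile normalization, TPM or voom. The cause was not tested. Stfa1 had a mean log2 difference of −0.82, which ranged from −2.37 without DKO 1 to 0.74 without DKO 2, so its direction was set by 1 library. For S100a8 the difference ran from 3.54 to 4.81. The differences of Camp, Cstdc4 and Cstdc5 depend on the pseudocount, since WT is at 0. No test was possible for limma with a DKO library left out, which leaves 1 library a side. No paired analysis was possible because the WT library carries no replicate number. The cluster sum was chosen after seeing the data, as was the median of the list genes above 0 in WT (0.61, against 1.11 for all 12). Depth limits Mpo and Ltf, and a single WT library limits every comparison. The zeros of S100a9, Ngp and Elane cannot be told apart from failed estimates. The same holds for those of Camp, Cstdc4 and Cstdc5 in WT.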

Other observations

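Genes of other white blood cells were also looked up. Of 19 lymphocyte genes with a row, 15 were listed at 0 in every library and none reached a mean of 1 RPKM. Of all rows, 68% were listed at 0 throughout, so these zeros are no measure of how many lymphocytes there were. The list summed to 0.922 RPKM in DKO 1, 0.434 in DKO 2 and 0.374 in WT. The list of eosinophil, mast cell and basophil genes summed to 4.78 RPKM in DKO 1 and 0.443 in DKO 2, against 3.33 in WT. Most of it was Cpa3, a protease of mast cells, with 3.86 RPKM in DKO 1 and a listed 0 in DKO 2, against 3.11 in WT. Unlike S100a8 and Camp, Cpa3 was thus not above WT in both DKO libraries.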
